A study of Mus musculus with 12 samples.

Results

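The 10 genes described here carry glycerol into the fat cell, activate it and build triglyceride on it, namely Aqp7, Gk, Pck1, Gpd1, Gpam, Gpat4, Agpat2, Lpin1, Dgat1 and Dgat2. They were chosen by symbol from a list of this pathway, each matched 1 row of the deposited matrix of 48321 genes, and all 10 were among the 11998 genes abundant enough to be tested. Triglyceride is made by adding fatty acids one after another to glycerol 3-phosphate. This comes from glycerol through glycerol kinase, or through Gpd1 from glucose or, by way of Pck1, from pyruvate. Acyltransferases (Gpam, Gpat4, Agpat2), a phosphatidate phosphatase (Lpin1) and a final acyltransferase (Dgat1 or Dgat2) complete the molecule. Brown fat cells break down stored triglyceride when noradrenaline (NE) activates them, and rebuild part of it in a cycle that needs these enzymes.

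The RNAseq libraries came from interscapular brown fat preadipocytes of a WT C57BL/6J newborn mouse, immortalized with SV40 Large T and differentiated to adipocytes for 8 days. Vector cells carried the empty pLEX plasmid, and tSema4B cells carried a truncated Sema4B that mimics the soluble ectodomain left after ADAM17 cuts the protein. Both lines were made by puromycin selection, differentiated with the same cocktail including rosiglitazone and insulin, and then held in serum-free medium without stimulation or with 2 μM NE for 6 h. This gave 4 groups of 3 libraries, called vector and tSema4B, each unstimulated or NE. Every tSema4B sample came from 1 stably transduced line, as did every vector sample, and replicates are labelled technical. The p-values therefore measure the spread between libraries and not between independent transductions.

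Reads counted on genes ranged from 2000780 to 5409583 per library. Sema4b itself averaged 116797 normalized counts in vector unstimulated cells and 281514 in tSema4B unstimulated cells, a log2 fold change of 1.27 (limma, adjusted p = 9.45e-10), and 74266 and 234276 after NE (1.65, adjusted p = 1.21e-11). The line labelled as empty vector thus held many Sema4b reads too, from 106135 to 131764 in its unstimulated libraries. Where these reads came from was not tested, and the counts do not separate the construct from the endogenous gene. The comparisons of the lines below are therefore of libraries with more and with fewer Sema4b reads. Whether the vector cells themselves lacked the construct was not tested. Fat cell markers were detected in every group, apart from Lep after NE, which was too low to be tested in any comparison. Summed over 10 adipocyte markers, the libraries ranged from 27934 to 30647 normalized counts in vector unstimulated, 3833 to 6085 in tSema4B unstimulated, 40487 to 53081 in vector NE and 6280 to 7459 in tSema4B NE cells. Fabp4 made up most of these sums, with means of 24034 in vector unstimulated and 40898 in vector NE cells. The list as a whole did not rise with NE in vector cells, where the median log2 fold change of the 9 markers tested was -0.01. All 9 adipocyte markers that were tested passed as lower in both tSema4B comparisons. Brown adipocyte markers were sparse. Over 8 of them the libraries summed to between 247 and 307 normalized counts in vector unstimulated, 56.0 and 82.1 in tSema4B unstimulated, 528 and 546 in vector NE, and 126 and 157 in tSema4B NE cells. Dio2 had no read in any library, and Ucp1 had none in tSema4B unstimulated cells. The higher sum after NE in vector cells was mostly Ucp1, which averaged 12.1 unstimulated and 276 after NE. The median log2 fold change of the 7 tested brown markers there was -0.04. Of 7 tested brown markers, 5 passed as lower in both tSema4B comparisons. Preadipocyte and fibroblast markers went the other way, with 4 of 10 tested passing as higher in both comparisons. These were Fap and the matrix genes Col1a1, Col3a1 and Dcn, while Pdgfra, Pdgfrb, Dlk1, Ly6a, Cd34 and Thy1 were not called in either. The 12 preadipocyte and fibroblast markers summed to between 16796 and 17428 normalized counts per library in vector unstimulated, 31517 and 35834 in tSema4B unstimulated, 13908 and 15993 in vector NE, and 29576 and 31417 in tSema4B NE cells. Col1a1 and Col3a1 made up most of these sums. Macrophage markers summed to at most 59.6 normalized counts and endothelial markers to at most 21.9 in any library, with Ptprc, Adgre1, Mrc1, C1qa, Kdr and Cldn5 at 0 reads throughout. The 2 macrophage markers tested, Csf1r and Cd14, passed as higher with NE in vector cells (log2 fold change 2.43 and 1.29, limma adjusted p = 0.0289 and 0.0464). Csf1r also passed in tSema4B cells (3.00, limma adjusted p = 0.0119), and neither passed between the lines. Alb, G6pc and Fbp1, genes of the hepatocyte and of gluconeogenesis, also had no read, and that list of 4 summed to at most 3.27. Since adipocyte and preadipocyte markers differed between the lines, fewer differentiated cells and less RNA of a gene per cell cannot be told apart in any tSema4B comparison below.

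Without stimulation, 8 of the 10 genes were lower in tSema4B cells and 0 were higher. One of these, Pck1, had 0 reads in the tSema4B line and was tested only because 3 vector libraries reached the abundance filter, so its direction was fixed by that filter, and 7 of the 8 calls do not rest on it. Calls needed an adjusted p no higher than 0.05 (limma on log2 of the normalized count + 1, Benjamini-Hochberg over all genes tested) and a change of 1 or more on the log2 scale in either direction. Over all genes tested, 2.71% were called lower and 1.11% higher in this comparison. The exceptions were Gpat4, at nearly the same level in both lines, and Lpin1, whose difference passed on its p but stayed under the required size. The median log2 fold change of the 10 genes was -1.36 (-1.34 with Pck1 at the bound given below), against -0.003 over all genes tested and -2.49 over the 9 adipocyte markers tested. After NE, 4 genes (Aqp7, Gk, Pck1 and Gpd1) were called lower and 0 higher, beside 3.73% and 2.03% of all genes. The limit on Pck1 holds here too, which leaves 3 calls, and the Aqp7 call was lost under 10 of 17 alternatives. Another 4 genes (Gpam, Agpat2, Dgat1 and Dgat2) passed on adjusted p but stayed under the required size at -0.96, -0.86, -0.76 and -0.99. The share of all genes passing on adjusted p alone is not given here, so these 4 have no background and cannot be set against the 3.73%. The median over the 10 genes was then -0.97, also with Pck1 at its bound, against -0.01 over all genes tested and -1.93 over the 9 adipocyte markers tested. In each of the 2 comparisons edgeR and DESeq2 also called 0 of the 10 genes higher. NE itself moved few of them. In vector cells Gk alone was called higher and 0 genes were called lower, beside 1.66% and 0.975% of all genes. In tSema4B cells Gk and Dgat1 were called higher and 0 lower, beside 1.31% and 0.758% of all genes. The 4 comparisons share groups in pairs, so they are not separate lines of evidence.

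**Figure D1:**
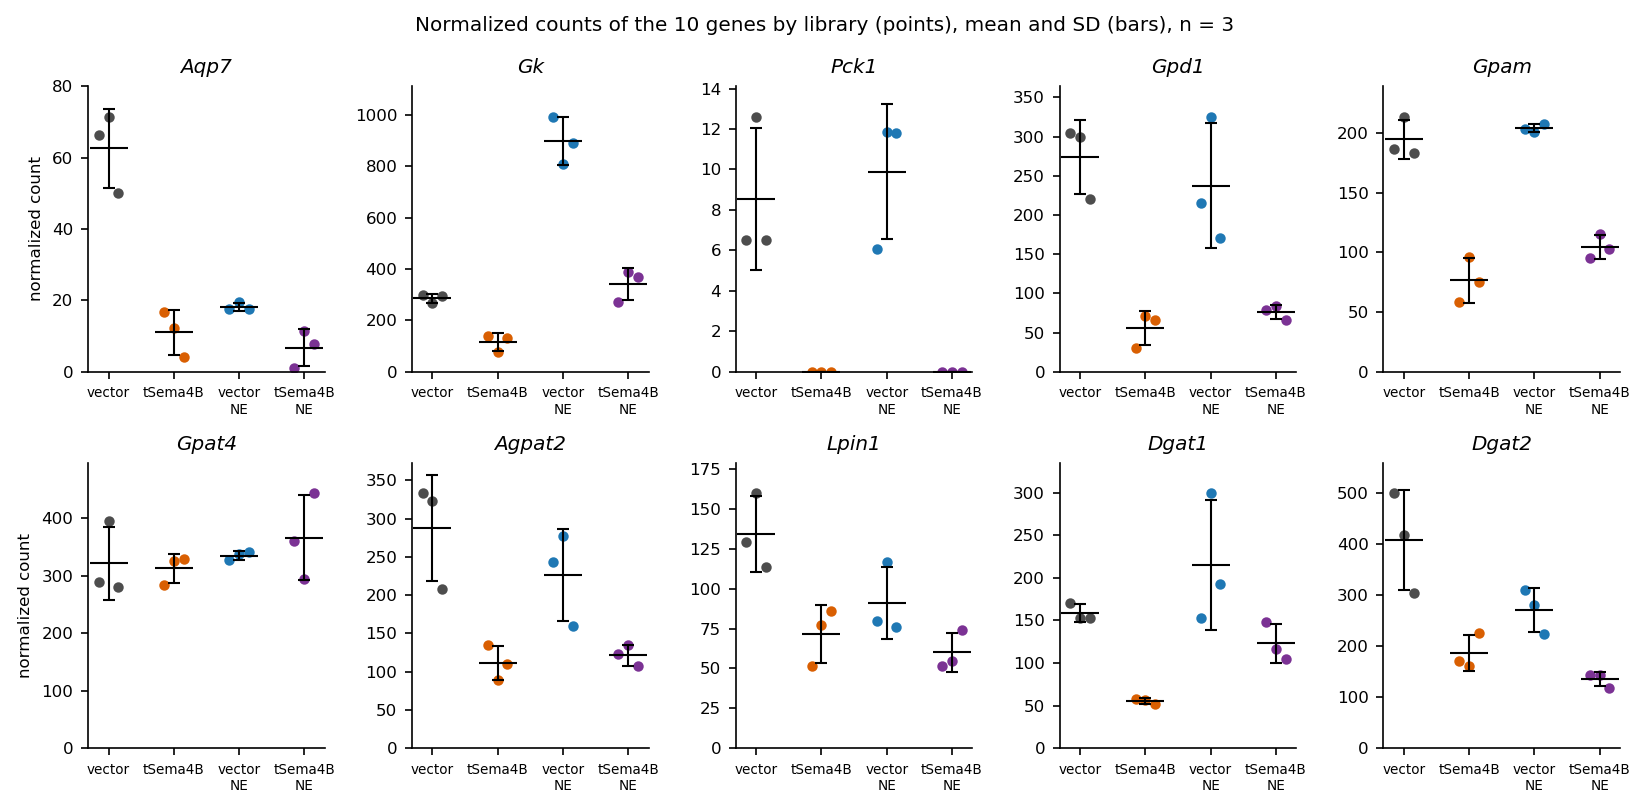
Normalized count (y axis, linear, from 0) of each of the 10 genes in each library (points), with the group mean and SD (bars), for vector, tSema4B, vector NE and tSema4B NE (x axis, 3 libraries each). The vector NE libraries of Gk sit between 808 and 994, above every other library, while the points of Gpat4 overlap across all 4 groups.

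Glycerol leaves and enters the fat cell through aquaglyceroporin 7, encoded by Aqp7 (ENSMUSG00000028427.13, chromosome 4, 41033074 to 41048139, minus strand, GRCm38). The promoter sequence is shown here because Aqp7 was called lower in tSema4B cells in both conditions and its window holds a nuclear receptor core. It comes from RefSeq (GRCm38.p6) and covers chr4:41048120-41048386, minus strand, printed 5′ to 3′, with the capitals marking a match to AGGTCA on the other strand whose first base lies 49 bases before the start at 41048136.
Aqp7: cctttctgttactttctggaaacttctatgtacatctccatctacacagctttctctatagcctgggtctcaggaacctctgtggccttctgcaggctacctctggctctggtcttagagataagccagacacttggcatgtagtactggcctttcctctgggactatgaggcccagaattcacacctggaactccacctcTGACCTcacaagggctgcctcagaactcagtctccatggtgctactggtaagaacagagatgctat
AGGTCA is the core recognized by PPARγ and many other nuclear receptors. It was in 16.3% of all promoter windows, and among the members also in windows of Gpam and Lpin1. Whether any receptor binds here was not tested. The 3 vector unstimulated libraries held 66.2, 71.5 and 50.1 normalized counts of Aqp7. The tSema4B unstimulated libraries held 16.7, 12.4 and 4.11, and rested on 3 to 14 reads. All of the vector values were above all of the tSema4B values, and the log2 fold change of -2.56 (SE 0.574, 95% interval -3.75 to -1.37, limma adjusted p = 0.00375) corresponds to a level 5.91-fold lower on the log2(normalized count + 1) scale. After NE the vector libraries stood at 17.5, 19.6 and 17.7 and the tSema4B libraries at 1.07, 11.4 and 7.93. These groups did not overlap either. The difference was -1.65 on the log2 scale (adjusted p = 0.0438), but this call was lost under 10 of 17 alternative settings, where the adjusted p ranged from 0.0158 to 0.236, and edgeR was among those that lost it. Without tSema4B NE replicate 1, the library with 1 read, it was -0.87, and over all single libraries left out it ranged from -2.16 to -0.87. Within the vector line the NE libraries were all below the unstimulated ones. That change of -1.71 missed the threshold (adjusted p = 0.0567) and passed with 5 of 17 alternatives, edgeR and DESeq2 among them. In the tSema4B line the NE and unstimulated libraries overlapped (log2 fold change -0.80, adjusted p = 0.482).

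Gk encodes glycerol kinase, which phosphorylates free glycerol so that it can be used again (ENSMUSG00000025059.16, chromosome X, 85701937 to 85776819, minus strand, GRCm38; 84 of its 7743 exon bases are shared with Gm14764). It was the only member called with NE in both lines, so its promoter is shown, from RefSeq (GRCm38.p6), chrX:85776800-85777069, minus strand, 5′ to 3′. Capitals mark TGACG, the core of the cAMP response element, whose first base lies 4 bases before the start at 85776819.
Gk: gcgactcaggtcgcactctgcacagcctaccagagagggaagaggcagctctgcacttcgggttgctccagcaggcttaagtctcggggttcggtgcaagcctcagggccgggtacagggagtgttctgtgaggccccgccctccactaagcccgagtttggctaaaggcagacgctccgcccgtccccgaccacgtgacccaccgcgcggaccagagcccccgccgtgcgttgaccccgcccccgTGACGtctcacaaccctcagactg
The vector libraries held 298, 267 and 294 normalized counts unstimulated, and 994, 808 and 891 after NE. The tSema4B libraries held 139, 77.3 and 133 unstimulated, and 271, 387 and 369 after NE. In each line every NE library was above every unstimulated one. Gk rose 3.12-fold in vector cells (log2 fold change 1.64, SE 0.178, 95% interval 1.27 to 2.01, adjusted p = 1.90e-06) and 2.98-fold in tSema4B cells (1.58, 95% interval 1.21 to 1.95, adjusted p = 3.92e-06). The difference between these responses was -0.07, with a 95% interval from -0.59 to 0.46 and an adjusted p of 0.961 for the interaction. Between the lines, Gk was lower in tSema4B cells both unstimulated (log2 fold change -1.33, adjusted p = 1.27e-05) and after NE (-1.40, adjusted p = 6.20e-06). Stimulated tSema4B cells, at 271 to 387 normalized counts, overlapped the unstimulated vector cells at 267 to 298.

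Pck1 encodes the cytosolic phosphoenolpyruvate carboxykinase, which in fat cells supplies glycerol 3-phosphate from pyruvate (ENSMUSG00000027513.11, chromosome 2, 173153048 to 173159273, plus strand, GRCm38). It was near the limit of detection in vector cells and had 0 reads in all 6 tSema4B libraries. Its promoter is shown because the gene was undetected in one line, and covers chr2:173152823-173153067, plus strand, from RefSeq (GRCm38.p6), 5′ to 3′. Capitals mark TGACG on the other strand, with the first base 90 bases before the start at 173153073.
Pck1: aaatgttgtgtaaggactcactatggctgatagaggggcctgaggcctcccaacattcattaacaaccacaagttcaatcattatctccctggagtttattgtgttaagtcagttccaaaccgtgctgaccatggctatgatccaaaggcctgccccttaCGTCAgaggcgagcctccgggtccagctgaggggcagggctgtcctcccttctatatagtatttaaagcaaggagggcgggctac
The vector libraries held 6.52, 12.6 and 6.53 normalized counts unstimulated (6 to 15 reads), and 6.05, 11.9 and 11.8 after NE (9 to 20 reads). Taking 3 reads in each tSema4B library as the most that a count of 0 allows, Pck1 was at least 2.08-fold lower unstimulated and at least 2.96-fold lower after NE. This floor covers counting error only. The fit called both differences (adjusted p = 0.0137 and 0.00634), but Pck1 entered it only through exactly 3 vector libraries that reached 10 normalized counts, so these calls add nothing to the bounds. With a pseudocount of 10 both calls were lost, and the unstimulated call was also lost without vector unstimulated replicate 2, with adjusted p values for that comparison up to 0.0832 over its alternatives. NE gave no detectable change in vector cells (log2 fold change 0.20, 95% interval -1.57 to 1.96, adjusted p = 0.927).

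Gpd1, the cytosolic glycerol 3-phosphate dehydrogenase that forms the backbone from a glycolytic intermediate, lies on chromosome 15 (99717515 to 99725005, plus strand, ENSMUSG00000023019.12). Gm16537 shares 384 of its 2961 exon bases, and the strand setting of the counting is not given in the sources used here, so reads there cannot be assigned with certainty. Unstimulated vector libraries held 304, 299 and 220 normalized counts and tSema4B libraries 31.0, 71.2 and 65.7. After NE the values were 216, 325 and 170 in vector and 78.3, 83.3 and 66.1 in tSema4B cells. No tSema4B library reached the lowest vector library in either condition. Gpd1 was lower in tSema4B cells by -2.35 on the log2 scale unstimulated (SE 0.263, adjusted p = 1.19e-06) and -1.59 after NE (adjusted p = 0.000150). NE moved it by -0.25 in vector (adjusted p = 0.634) and 0.51 in tSema4B cells (adjusted p = 0.285), and both pairs of groups overlapped. The interaction was 0.76, with a 95% interval from -0.01 to 1.53 (adjusted p = 0.497).

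**Figure D2:**
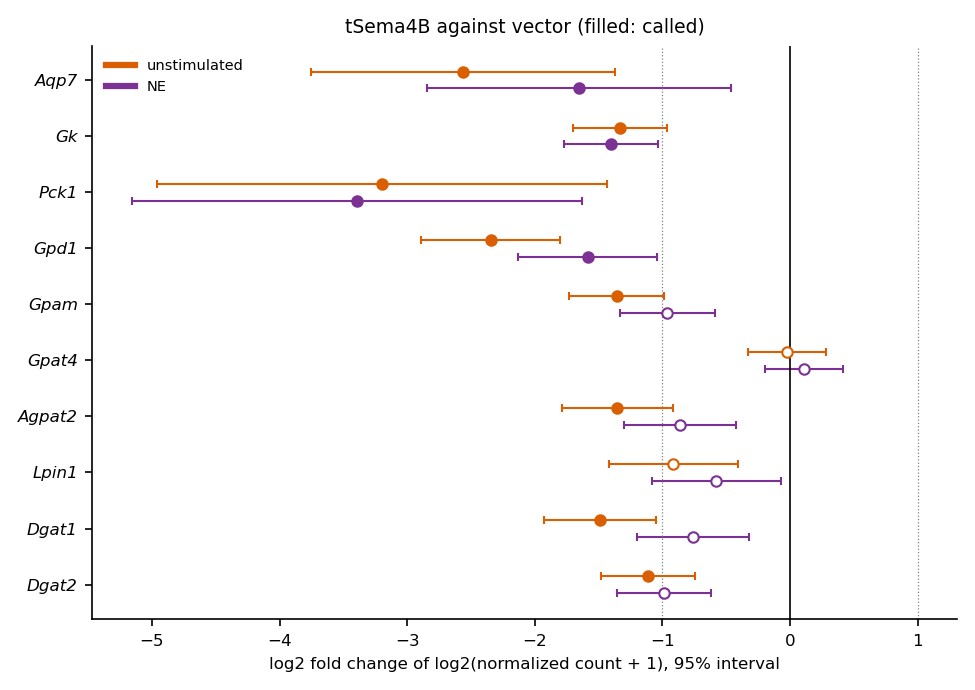
Log2 fold change of log2(normalized count + 1) between tSema4B and vector cells (x axis) with its 95% interval for each gene (y axis), unstimulated (orange) and after NE (purple), from 3 libraries per group. Filled points were called, dotted lines mark a log2 fold change of 1 in size, and the Pck1 values depend on the pseudocount because its tSema4B libraries held 0 reads. Gpat4 alone sits at 0 in both conditions, at -0.03 and 0.11.

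The first acylation is shared by Gpam, the glycerol 3-phosphate acyltransferase of the mitochondrial outer membrane, and Gpat4, an enzyme of the endoplasmic reticulum. Gpam (ENSMUSG00000024978.11, chromosome 19, 55067268 to 55127238, minus strand) held 187, 214 and 183 normalized counts in vector and 58.4, 95.9 and 75.3 in tSema4B unstimulated libraries. After NE it held 204, 201 and 208 in vector and 95.4, 116 and 103 in tSema4B libraries. The lines did not overlap in either condition. Gpam was called lower unstimulated (log2 fold change -1.36, SE 0.180, adjusted p = 1.21e-05), while the difference of -0.96 after NE passed on its p (adjusted p = 0.000555) and fell just short of the required size. NE changed Gpam by 0.07 in vector (adjusted p = 0.865) and by 0.47 in tSema4B cells (adjusted p = 0.131).

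Gpat4 (ENSMUSG00000031545.6, chromosome 8, 23171265 to 23208346, minus strand) gave 290, 395 and 280 normalized counts in vector and 284, 326 and 329 in tSema4B unstimulated libraries. After NE it gave 327, 338 and 341 in vector and 360, 295 and 444 in tSema4B libraries. Every pair of groups compared overlapped. The log2 fold change between the lines was -0.03 unstimulated, with a 95% interval from -0.33 to 0.28, and 0.11 after NE, with an interval from -0.20 to 0.42, so the fits bound any difference between the lines to less than the size required for a call. NE moved it by 0.08 in vector and 0.21 in tSema4B cells (adjusted p = 0.817 and 0.469).

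As both enzymes do the same step, the log2 difference between them was taken within each library. Since transcript length is fixed for each gene, only changes of this difference between groups carry meaning. Gpam minus Gpat4 averaged -0.71 ± 0.153 (SD, n = 3) in vector and -2.04 ± 0.259 in tSema4B unstimulated cells. After NE the averages were -0.71 ± 0.0324 and -1.78 ± 0.389. The lines did not overlap in either condition, with differences of -1.33 and -1.07. An exact two-sided permutation test gave p = 0.1 for each, the smallest value that 3 against 3 libraries allow, and 0.267 after adjustment over the 8 such tests run. Within a line NE shifted the balance by -0.01 in vector (exact p = 1.0) and by 0.26 in tSema4B cells (exact p = 0.4), and the groups overlapped.

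Agpat2 adds the second fatty acid and its loss causes generalized lipodystrophy (ENSMUSG00000026922.13, chromosome 2, 26593057 to 26604417, minus strand; 64 of 2130 exon bases shared with Egfl7). Its unstimulated libraries held 333, 323 and 208 normalized counts in vector and 135, 89.7 and 110 in tSema4B cells. After NE they held 243, 277 and 160 in vector and 123, 134 and 107 in tSema4B cells. The lines were apart in both conditions, by a log2 fold change of -1.35 unstimulated (SE 0.211, adjusted p = 8.93e-05), which was called, and -0.86 after NE (adjusted p = 0.00527), which was not. Without vector NE replicate 3, the lowest of its group, the NE difference was also called. NE gave -0.35 in vector (adjusted p = 0.337) and 0.14 in tSema4B cells (adjusted p = 0.781).

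Lpin1 encodes lipin 1, which removes the phosphate from phosphatidate and also acts as a transcriptional coregulator (ENSMUSG00000020593.15, chromosome 12, 16535669 to 16610966, minus strand). Vector libraries held 129, 160 and 113 normalized counts and tSema4B libraries 51.2, 77.3 and 86.3 without stimulation. After NE they held 80.0, 117 and 75.9 in vector and 51.5, 54.9 and 74.0 in tSema4B cells. The lines did not overlap in either condition, though after NE the nearest libraries were 75.9 and 74.0. The log2 fold change was -0.91 unstimulated (SE 0.243, adjusted p = 0.0136) and -0.58 after NE (adjusted p = 0.0958), and neither was called. The unstimulated difference reached the required size without vector unstimulated replicate 3, without tSema4B unstimulated replicate 3, and with libraries scaled to the same total over nuclear genes. NE gave -0.57 in vector (adjusted p = 0.149) and -0.23 in tSema4B cells (adjusted p = 0.663), with overlapping libraries.

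The last acylation is carried out by Dgat1 or Dgat2, which are unrelated in sequence. Dgat1 (ENSMUSG00000022555.12, chromosome 15, 76502015 to 76511953, minus strand) held 170, 153 and 152 normalized counts in vector and 58.4, 57.2 and 52.0 in tSema4B unstimulated libraries. After NE the vector libraries spread over 153, 299 and 193 and the tSema4B libraries over 148, 116 and 104. The lines were far apart unstimulated (log2 fold change -1.49, SE 0.210, adjusted p = 2.76e-05) and close after NE, where the highest tSema4B library stood just under the lowest vector library (-0.76, adjusted p = 0.0125, not called). Dgat1 rose with NE in tSema4B cells by 1.11 (95% interval 0.67 to 1.55, adjusted p = 0.00180), every NE library lying above every unstimulated one. Without tSema4B NE replicate 1 this rise was 0.97 and no longer called. In vector cells NE gave 0.38 with overlapping libraries (adjusted p = 0.285). The responses of the lines were not shown to differ. Their difference of 0.73 had an interval from 0.11 to 1.35 and an unadjusted p of 0.0229, but an adjusted p of 0.388.

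Dgat2 (ENSMUSG00000030747.5, chromosome 7, 99153658 to 99182719, minus strand) held 500, 418 and 305 normalized counts in vector and 172, 161 and 226 in tSema4B unstimulated libraries. After NE it held 309, 280 and 223 in vector and 144, 143 and 119 in tSema4B libraries. The lines did not overlap in either condition. The unstimulated difference of -1.11 was called (SE 0.178, adjusted p = 0.000119), although without vector unstimulated replicate 1, the highest library, it was -0.95. After NE the difference of -0.99 passed on its p (adjusted p = 0.000366) and lay at the edge of the required size, which it reached with 5 of 17 alternatives, edgeR among them. Neither NE comparison of Dgat2 was called. In vector cells the change was -0.57 (adjusted p = 0.0392), under the required size and with overlapping libraries, and in tSema4B cells it was -0.45 (adjusted p = 0.149), with every NE library below every unstimulated one.

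Within each library, Dgat2 minus Dgat1 averaged 1.33 ± 0.293 in vector and 1.70 ± 0.342 in tSema4B unstimulated cells on the log2 scale (SD, n = 3). After NE the averages were 0.38 ± 0.574 and 0.15 ± 0.171. With NE this measure was lower by 0.95 in vector cells, with overlapping groups (exact permutation p = 0.2), and by 1.56 in tSema4B cells, where the unstimulated libraries at 1.47 to 2.10 lay above the NE libraries at -0.04 to 0.29 (exact p = 0.1, adjusted 0.267). The lines did not separate in this measure, with differences of 0.38 unstimulated (exact p = 0.3) and -0.23 after NE (exact p = 0.8).

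**Figure D3:**
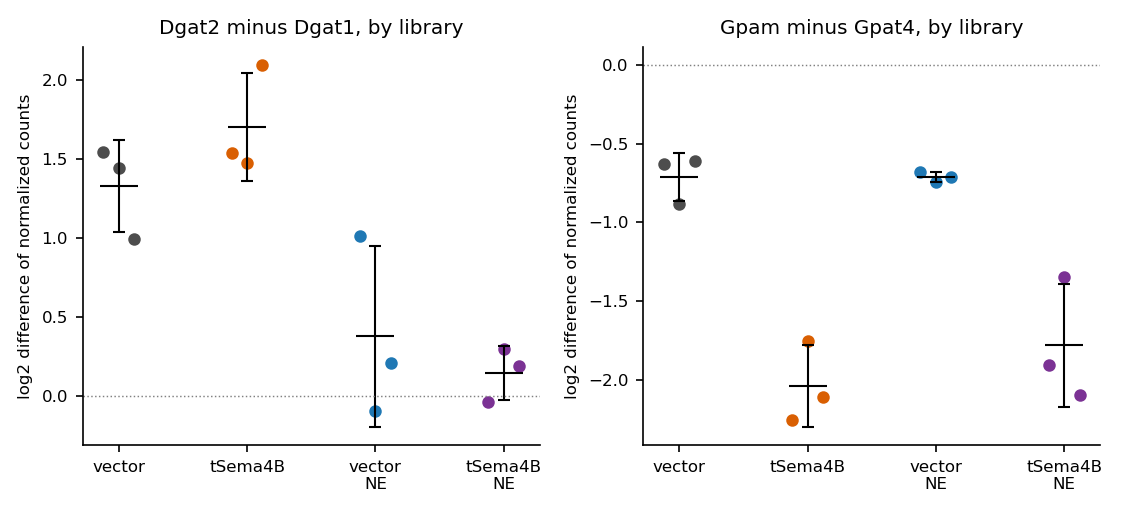
Log2 difference of log2(normalized count + 1) between enzymes of the same step (y axis) in each library (points), with mean and SD (bars), for the 4 groups of 3 libraries (x axis). The left panel (Dgat2 minus Dgat1) falls with NE to between -0.04 and 0.29 in tSema4B cells, and the right panel (Gpam minus Gpat4) separates the lines at -0.88 to -0.61 for vector against -2.26 to -1.76 for tSema4B unstimulated cells.

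None of the 10 genes passed the test of a different NE response between the lines (limma interaction, adjusted p). Only Dgat1 had an unadjusted p under 0.05, a cut-off for which no share of all genes is given here. edgeR and DESeq2 also called 0 members. Over all genes tested, 3 (0.025%) passed in limma, 4 in edgeR and 101 in DESeq2, and the limma count reached 31 without tSema4B unstimulated replicate 2.

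**Figure D4:**
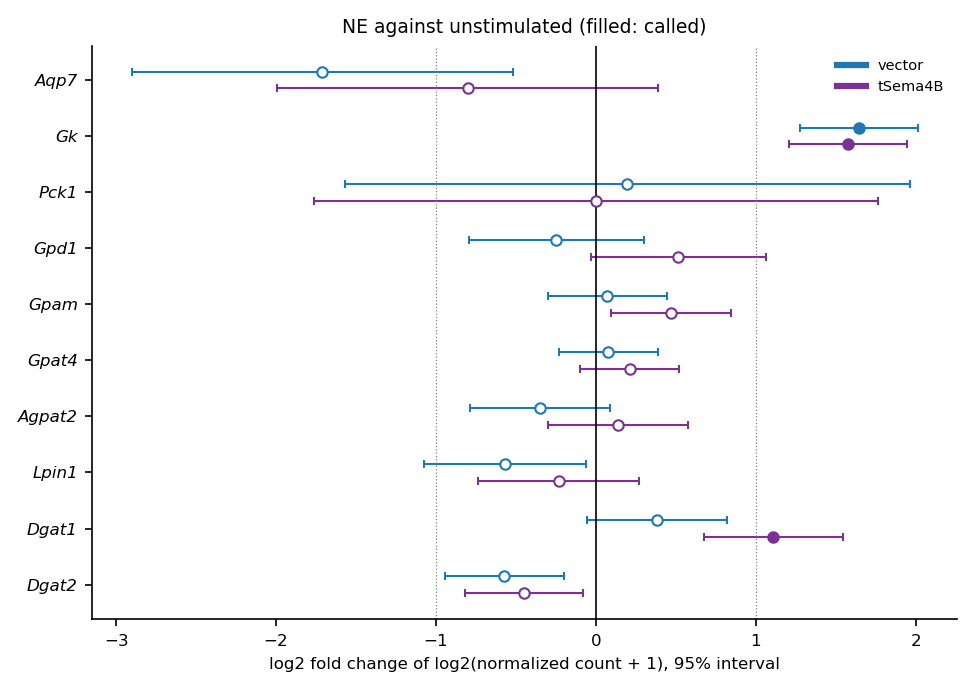
Log2 fold change of log2(normalized count + 1) between NE and unstimulated libraries (x axis) with its 95% interval for each gene (y axis), in vector (blue) and tSema4B cells (purple), from 3 libraries per group. Filled points were called and dotted lines mark a log2 fold change of 1 in size. Gk is filled in both lines at 1.64 and 1.58, and Dgat1 in tSema4B cells at 1.11.

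Levels can be set side by side between genes only per length, here as normalized counts per kilobase of annotated exon (GENCODE, GRCm38). In vector unstimulated cells Agpat2 (135 ± 32.6, SD, n = 3), Dgat2 (132 ± 31.7) and Gpd1 (92.7 ± 15.9) led, and neighbours in that order overlapped within their SD. They were followed by Dgat1 (51.9 ± 3.35), Gpat4 (48.1 ± 9.56) and Gk (36.9 ± 2.19), which again overlapped from neighbour to neighbour, and then by Gpam (29.2 ± 2.50), Aqp7 (22.1 ± 3.94), Lpin1 (13.9 ± 2.44) and Pck1 (2.49 ± 1.02), each apart from the next. In tSema4B unstimulated cells Dgat2 (60.4 ± 11.3), Agpat2 (52.3 ± 10.6) and Gpat4 (46.8 ± 3.79) overlapped at the top. Gpd1 (18.9 ± 7.36), Dgat1 (18.3 ± 1.11), Gk (15.05 ± 4.40), Gpam (11.5 ± 2.82), Lpin1 (7.41 ± 1.88) and Aqp7 (3.91 ± 2.26) formed a lower run in which each overlapped the next. NE brought Gk to the top of the order in vector cells (116 ± 12.0), where it overlapped Agpat2 (106 ± 28.1). Dgat2 (87.8 ± 14.1), Gpd1 (80.1 ± 26.9), Dgat1 (70.4 ± 24.8) and Gpat4 (50.2 ± 1.09) came next, each overlapping its neighbour, with Gpam (30.6 ± 0.50), Lpin1 (9.40 ± 2.33), Aqp7 (6.45 ± 0.407) and Pck1 (2.89 ± 0.972) apart below them. In tSema4B NE cells Agpat2 (57.1 ± 6.48), Gpat4 (54.9 ± 11.1), Gk (44.2 ± 8.04), Dgat2 (43.9 ± 4.57) and Dgat1 (40.2 ± 7.37) overlapped in turn. Below them Gpd1 (25.6 ± 3.00), Gpam (15.7 ± 1.52), Lpin1 (6.22 ± 1.26) and Aqp7 (2.40 ± 1.85) were each apart from the next.

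The rest of the pathway was described from a list of 36 further genes of glycerol transport, glycerol 3-phosphate, acyl-CoA and glycerolipid synthesis and lipid droplet budding, of which 28 were tested. Without stimulation 2 of the 28 were called lower in tSema4B cells and 0 higher, beside 2.71% and 1.11% of all genes. Acsl1, which activates long-chain fatty acids to acyl-CoA, averaged 604 ± 108 normalized counts in vector and 181 ± 26.7 in tSema4B cells (log2 fold change -1.73, adjusted p = 2.48e-07). Fitm2, an endoplasmic reticulum protein needed for droplet budding, averaged 422 ± 87.5 and 127 ± 20.7 (-1.71, adjusted p = 3.97e-07). Both groups were apart for each gene. After NE 4 of the 28 were called lower and 0 higher, beside 3.73% and 2.03% of all genes. Acsl1 (-1.15, adjusted p = 5.15e-05) and Fitm2 (-1.53, adjusted p = 2.19e-06) were joined by Bscl2, the seipin gene of lipid droplet assembly (-1.10, adjusted p = 4.56e-05, with 257 ± 15.4 in vector and 121 ± 19.4 in tSema4B cells), a call lost without tSema4B NE replicate 2. The fourth was Gpat3, the other endoplasmic reticulum enzyme of the first acylation, listed under its older symbol Agpat9. It averaged 36.0 ± 4.77 in vector unstimulated, 23.0 ± 7.04 in tSema4B unstimulated, 101 ± 13.5 in vector NE and 32.1 ± 9.60 in tSema4B NE cells. Gpat3 rose with NE in vector cells by 1.46 (adjusted p = 0.00324) and was lower in tSema4B cells after NE by -1.66 (adjusted p = 0.000516). Its NE response in tSema4B cells was 0.46 (adjusted p = 0.445), and the difference between the responses, the larger being that of vector cells, did not pass (adjusted p = 0.420). It was the only 1 of the 28 called with NE in vector cells, beside 1.66% of all genes called higher and 0.975% lower. In tSema4B cells, beside 1.31% higher and 0.758% lower, the only call was Acsl4, a ligase with a preference for arachidonic acid, which rose from 461 ± 41.6 to 925 ± 48.5 (1.01, adjusted p = 3.14e-06). That value sits at the required size, the call was lost under 4 of 17 alternatives (a pseudocount of 10, quantile normalization, and without tSema4B unstimulated or NE replicate 2), and the rise in vector cells was 0.93 (adjusted p = 6.73e-06). None of the 28 passed the interaction test in limma, edgeR or DESeq2. An unadjusted p under 0.05 was reached by 5, without a share of all genes to set beside it. Over the 28 genes tested the median log2 fold change was -0.21 unstimulated and -0.14 after NE between the lines, and 0.07 in vector and 0.18 in tSema4B cells with NE.

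For each member the genes with the most similar pattern were found, by the root mean square difference of log2(normalized count + 1) over the 12 libraries after each gene was centred on its mean. The closest to Gk were Tmed5 (0.309), Gadd45g (0.361) and Ppa1 (0.363). Tmed5 averaged 853 and 469 normalized counts in vector and tSema4B unstimulated cells and 2645 and 942 after NE. Pck1 was nearest to Cidea and Fabp4 (0.479 each) and Xist (0.489), genes that were low in both tSema4B groups. For Aqp7 the nearest, C130074G19Rik (0.598), Sult1a1 (0.598) and Acss2 (0.606), lay further off than those of any other member. Gpd1 was nearest to Cbr2 (0.385), Mgll (0.392) and Cib2 (0.401). Gpam lay next to Scarb1 (0.170), mt-Nd1 (0.178) and D230025D16Rik (0.190). Gpat4, with its flat pattern, had the closest neighbours of all members in Esco2 (0.0852), Cdc42se1 (0.110) and Klc1 (0.120). Agpat2 lay near Chchd6 (0.219) and Glul (0.226), and Lpin1 was nearest to Dhrs4 (0.206) and to the fatty acid oxidation enzymes Acads (0.231) and Hadh (0.233). The nearest to Dgat1 was Scd1 (0.201), the stearoyl-CoA desaturase, followed by Il17ra (0.285) and Mrps22 (0.305), and the nearest to Dgat2 were Ptgr2 (0.202), Irs1 (0.232) and Ppp2r5a (0.238). These values describe likeness in libraries that share the differences between the lines.

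Promoter windows of 300 bases were present for 6 of the 10 genes, 8 windows in all, because Aqp7 and Gpam have 2 starts each. They were searched on both strands for TGACGTCA, the full cAMP response element, for its core TGACG, which the full element contains, for the direct repeat of AGGTCA with any 1 base between (DR1, the PPAR and RXR type of element), and for AGGTCA alone, which that repeat contains. The full elements were in 0 of the 8 windows, and in 1.79% and 0.0396% of all 32851 windows in the table. TGACG was in 3 windows, of Gk, Gpam and Pck1, beside 20.8% of all windows. AGGTCA was in 4 windows, of Aqp7 (both), Gpam and Lpin1, beside 16.3% of all windows. The 2 Aqp7 windows overlap and share a match, 49 bases before the start at 41048136 and 223 before that at 41047962. The 4 windows are therefore not separate from each other. A match describes letters in the window and not a bound site.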

How the data were processed

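RNA was made into cDNA by a Smart-seq type protocol and sequenced single-end. Per the paper's methods, reads were screened for other species, aligned with STAR 2.7.9a to mm10 (GRCm38.p4) and counted per gene with htseq-count. The deposited signal is the count the authors divided by the DESeq2 size factor of each library, a normalized count. Annotation, strand and multimapping settings are not given in the sources used here. In all 12 libraries 100% of non-zero values were whole multiples of 1 read within 0.01, so whole reads were recovered for edgeR and DESeq2. All value columns were assigned to samples by their labels.

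Values were tested with limma 3.58.1 (R 4.3.3, trend, two-sided) on log2(normalized count + 1) in one model of the 4 groups, over the 11998 genes that reached 10 normalized counts in 3 or more libraries. Calls required a Benjamini-Hochberg adjusted p no higher than 0.05 and a change of 1 or more on the log2 scale, or the adjusted p alone for the interaction. The script was tested on simulated data. Single values per library were compared by exact permutation tests (scipy 1.17.1). Positions and exon lengths came from a GENCODE annotation of GRCm38, promoters from RefSeq, where Gpd1, Gpat4, Dgat1 and Dgat2 were not matched. Proteins were not analysed here. The text names the 10 members, Sema4b, each other listed pathway gene called in any comparison, and the 3 tested genes most like each member, of which 1 is not reported here. Marker lists covered adipocytes, brown adipocytes, preadipocytes and fibroblasts, macrophages, endothelial cells and hepatocyte-type gluconeogenic genes. Members and lists were chosen with earlier results of these data known.

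Replicates of a group differed by more than sampling noise (chi-square per degree of freedom 3.56 to 5.79 over 12 pairs). Replicate numbers did not pair the groups, as same-numbered libraries had correlations of -0.047 to 0.028 over 18 pairs. Alternatives tried were pseudocounts of 0.5 and 10, a filter of 50 or none, scaling to the same total over all or nuclear genes, quantile normalization, edgeR 4.0.16, DESeq2 1.42.0, only the libraries compared, adjusted p alone, the replicate number as a block, and each library left out.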

Additional observations from a re-analysis of the deposited data

How the results depend on the processing

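Of the values of the 10 genes that were called, 238 kept their call under an alternative and 15 lost it, all in the same direction. Of the values not called, 611 stayed so, 16 became called and 15 changed sign. Between the lines without stimulation, the count of 8 ranged from 7 to 9 over all alternatives. After NE the count of 4 became 2 with a pseudocount of 10, 8 on adjusted p alone, 3 with no filter, a filter of 50, the same total, quantile normalization or only the libraries compared, and 6 with the same nuclear total, and it ranged from 3 to 6 with single libraries left out (3 without vector NE replicate 1 or 2, 5 without its replicate 3, 6 without tSema4B NE replicate 2). With NE in vector cells the count of 1 became 2 with a pseudocount of 10, with quantile normalization, with only the libraries compared, with edgeR, with DESeq2 and on adjusted p alone. In all but the last the added gene was Aqp7, and on adjusted p alone it was Dgat2. With NE in tSema4B cells the count of 2 ranged from 1 to 2 when single libraries were left out, as Dgat1 was lost without tSema4B NE replicate 1. Under a filter of 50 normalized counts Pck1 was not tested. The share of all genes passing on adjusted p alone is not given here, so the counts on that rule have no background.

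With the replicate number as a block (replicate block), 8, 4, 1 and 2 genes were called in the same 4 comparisons and 0 in the interaction. Replicate numbers did not pair libraries.

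The sign changes were all in values of at most 0.14 in size. The Gk interaction of -0.07 became 0.00367 with the same total and 0.00412 with quantile normalization, and ranged from -0.34 to 0.0927 with single libraries left out. For Gpat4 the left-out libraries gave -0.12 to 0.13 between the lines unstimulated, -0.0395 to 0.25 after NE, -0.0135 to 0.23 with NE in vector cells and -0.0233 to 0.28 for the interaction. For Agpat2 with NE in tSema4B cells they gave -0.00455 to 0.29, and for the Dgat2 interaction -0.0370 to 0.32.

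Depth limits Pck1, with at most 20 reads in any library, and Aqp7, with at most 14 in any tSema4B library. With 3 libraries a group the exact test cannot go under 0.1.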
